A study of Mus musculus with 16 samples.

Results

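The genes described here are 10 genes that connective tissue mast cells are known for, namely Cpa3, Cma1, Mcpt4, Tpsb2, Tpsab1, Mrgprb1, Mrgprb2, Kit, Tph1 and Hdc, followed across subcapsular sinus macrophages (SSMs) and medullary sinus macrophages (MSMs) sorted from mouse lymph nodes. They were chosen by gene symbol because most had stood apart between SSMs and MSMs from non-draining lymph nodes (ndLNs) in the same libraries. That contrast is therefore given as a description, and no test of it is used as a result. All 10 had a row in the count table, which holds 55421 genes, and all 10 were among the 21085 genes with enough counts to be tested. RNA sequencing was done on 8 libraries, 2 in each of 4 groups: SSMs from ndLNs, SSMs from tumor-draining lymph nodes (tdLNs), MSMs from ndLNs and MSMs from tdLNs.

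All donors were male mice of the strain labelled C57B/6 that carried MOC2, a mouse oral squamous cell carcinoma line, implanted in the skin of the flank 2 weeks before collection, so the ndLN libraries also come from tumor-bearing animals and no tumor-free animal was included. Each library was a pool of cells from 2 mice. The paper states that every pool gave both subsets from both node types. By that account, libraries with the same pool number come from the same mice. The paper counts more pools than the 2 numbered in the labels, and the labels were followed here. A tdLN pool held 2 inguinal nodes from the tumor side and an ndLN pool 6 nodes (inguinal, axillary and brachial) from the opposite side, so drainage of the tumor cannot be told apart from node position. Both subsets were gated as live CD45+ CD3- B220- Ly6G- CD11b+ CD169+ cells, SSMs being CD11c- with low side scatter and MSMs CD11c+ with high side scatter. No mast cell marker was part of the gate. A library held between 42972328 and 48130352 counts. On these raw totals, 3 counts correspond to 0.0623 to 0.0698 CPM (counts scaled to a common library size). Unless raw totals are named, CPM and folds below use TMM-scaled library sizes, on which 3 counts differ somewhat from these values. Macrophage marker genes were detected in every group, with none of the 9 at 0, and their summed level ranged from 5948 to 22960 CPM in SSMs and from 4711 to 5375 CPM in MSMs. Most of that sum was Lyz2, at 5043 to 19310 CPM in SSMs and 3997 to 4635 CPM in MSMs. Siglec1, the gene of the gate marker CD169, was 15.1 and 8.47 CPM in SSMs from ndLNs and 70.0 and 59.2 CPM in SSMs from tdLNs. In MSMs it was 0.795 and 1.63 CPM in ndLNs and 5.96 and 5.64 CPM in tdLNs.

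Mast cells store ready-made mediators in granules and release them when IgE on the high-affinity Fc receptor, or the Mrgprb2 receptor, is engaged. In mice, the connective tissue type of the skin and serosal surfaces packs carboxypeptidase A3, the chymases encoded by Cma1 and Mcpt4 and the tryptases encoded by Tpsb2 and Tpsab1 together with heparin, whereas the mucosal type carries the chymases encoded by Mcpt1 and Mcpt2. Kit is the receptor for stem cell factor, on which mast cells depend, and is also used by other cells. Hdc makes histamine and Tph1 carries out the first step of serotonin synthesis. Connective tissue mast cells can also be found in lymph nodes.

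The proteases are encoded in 3 places of the genome (GRCm38). Cpa3 lies at chr3:20215620-20242181 on the minus strand. Cma1 (chr14:55941451-55944675) and Mcpt4 (chr14:56059629-56062313) lie in the chymase locus, and Tpsab1 (chr17:25343245-25345562) and Tpsb2 (chr17:25366305-25369098) lie in the tryptase locus on opposite strands. Mrgprb1 (chr7:48444113-48456342) and Mrgprb2 (chr7:48550965-48558086) are in the Mrgpr cluster. No exon of the 10 genes overlapped an exon of another annotated gene. The members with close relatives could share reads, so their coding sequences were compared. Tpsb2 and Tpsab1 were identical at 77.1% of aligned coding bases, Mrgprb1 and Mrgprb2 at 73.8%, and Cma1 and Mcpt4 at 71.3%. The longest stretch that the tryptase genes share, shown because reads longer than it differ between the genes, was 39 bases. It starts at coding base 199 of Tpsb2 and 301 of Tpsab1 and crosses an exon junction in both genes.
Tpsb2 and Tpsab1, shared coding stretch: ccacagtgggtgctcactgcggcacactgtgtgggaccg
The other pairs shared at most 27 bases (Cma1 with Mcpt4) and 25 bases (Mrgprb1 with Mrgprb2). Of all 50-base windows of the transcripts, 5.38% of Cma1 were also found in Gm48934 and 5.48% of Mcpt4 in Cma2 or Mcpt9. The share was 0 for the Cpa3, Tpsb2, Tpsab1, Mrgprb1, Mrgprb2 and Kit transcripts and at most 0.141% for Tph1 and Hdc.

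GATA2, a lineage factor of mast cells that was itself present in the SSM libraries, binds sites with a GATA core, so the promoters were searched for GATAA on both strands. RefSeq windows of 250 bases before to 50 bases after the start (GRCm38.p6) were given for 8 of the 10 genes, all but Tpsb2 and Tpsab1. The motif was found in 5 of these 8 genes (Cpa3, Cma1, Mcpt4, Mrgprb1 and Mrgprb2) and in neither Kit, Tph1 nor Hdc. Kit and Tph1 have 2 windows each, so this is 5 of 10 windows, compared with 25.4% of all 32851 windows. The 250 bases before the start are shown for the 4 genes with a match there, with the match in capitals (TTATC where it is on the opposite strand).
Cpa3 (chr3:20242182-20242431, minus strand): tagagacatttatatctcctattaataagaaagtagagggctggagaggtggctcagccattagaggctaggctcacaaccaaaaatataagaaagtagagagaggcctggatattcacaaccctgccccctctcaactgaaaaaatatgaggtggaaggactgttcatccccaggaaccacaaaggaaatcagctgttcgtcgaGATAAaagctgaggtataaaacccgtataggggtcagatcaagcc
Cma1 (chr14:55944676-55944925, minus strand): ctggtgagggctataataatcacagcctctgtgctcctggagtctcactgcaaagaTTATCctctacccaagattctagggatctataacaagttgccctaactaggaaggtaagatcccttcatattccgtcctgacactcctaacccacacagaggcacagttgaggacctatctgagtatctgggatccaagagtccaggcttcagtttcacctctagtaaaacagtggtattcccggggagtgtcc
Mcpt4 (chr14:56062311-56062560, minus strand): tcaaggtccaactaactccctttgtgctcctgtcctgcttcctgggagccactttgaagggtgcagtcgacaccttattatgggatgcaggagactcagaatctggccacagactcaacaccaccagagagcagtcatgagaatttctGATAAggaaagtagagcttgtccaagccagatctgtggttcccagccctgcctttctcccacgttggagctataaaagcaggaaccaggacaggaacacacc
Mrgprb2 (chr7:48558087-48558336, minus strand): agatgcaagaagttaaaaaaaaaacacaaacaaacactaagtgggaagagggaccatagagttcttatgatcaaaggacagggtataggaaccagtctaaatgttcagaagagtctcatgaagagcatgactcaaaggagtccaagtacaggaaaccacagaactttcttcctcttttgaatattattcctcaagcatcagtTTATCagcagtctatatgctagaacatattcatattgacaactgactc
The match was centred 43 bases before the start in Cpa3, 192 in Cma1, 100 in Mcpt4 and 46 in Mrgprb2, while that of Mrgprb1 lay 43 bases after it. CACGTG and CATGTG, 2 forms of the E-box that MITF binds, were found in 0 of the 10 windows, against 7.15% and 14.2% of all windows, and TATAAA in 2 of 10 against 13.6%. These matches describe the letters in the windows and do not show binding.

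In ndLNs, the proteases were abundant in SSMs and close to absent in MSMs. Cpa3, the carboxypeptidase of the granule, had 30559 and 15394 counts in the SSM libraries and 1 and 4 in the MSM libraries. Tpsb2, the protease gene with the most counts in these SSMs, had 39339 and 19613 counts against 21 and 87. Cma1 had 27514 and 14237 counts against 21 and 75. Their mean CPM in SSMs was 7607, 452.1 and 359.2 times that in MSMs, and the groups did not overlap. The ratio of Cpa3 rests on 5 counts in MSMs, so its size is uncertain. Mcpt4 had 27391 and 12331 counts in SSMs against 6 and 8 in MSMs. Tpsab1 was lower, with 4887 and 2854 counts against 1 and 1. Together, the 5 protease genes made up 0.270% and 0.150% of all counts in the 2 SSM libraries. As a description of the contrast that chose the genes, 8 of the 10 were called higher in SSMs, where 6.01% of all genes were (6.06% were called lower), and nothing is read from that count. The 2 members not called higher were Mrgprb2, which missed the cut-off on mean count, and Kit, which was lower in SSMs (log2 fold change -0.57).

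**Figure D1:**
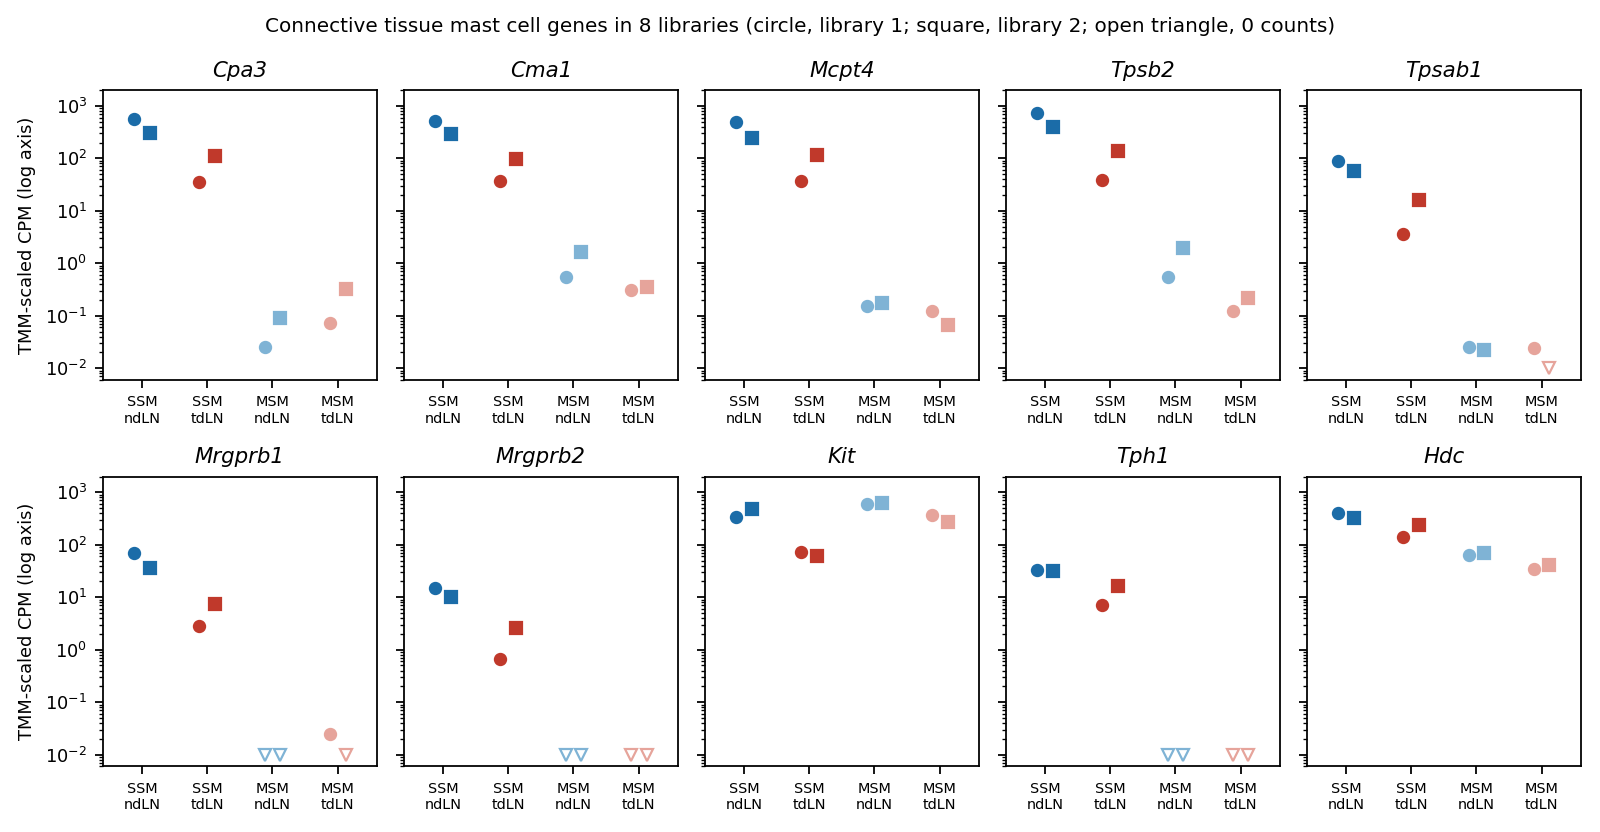
TMM-scaled CPM (log axis) of each of the 10 genes in the 8 libraries. Circles are library 1 and squares library 2 of each group, and open triangles drawn at the foot of the axis are libraries with 0 counts. In every panel both SSM tdLN points lie below both SSM ndLN points, and Kit is the one gene with both MSM points above both SSM points within each node type.

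The surface receptors and amine enzymes split into genes that MSMs lacked and genes that they also carried. Mrgprb1, a receptor related to the mast cell activator Mrgprb2, had 3851 and 1819 counts in SSMs from ndLNs and 0 in both MSM libraries. Mrgprb2, the receptor for basic secretagogues, had 798 and 495 counts against 0 and 0. Tph1 had 1782 and 1587 counts against 0 and 0. These receptors and Tph1 were therefore below the floor of 3 counts in MSMs from ndLNs, which allows folds of at least 748 for Mrgprb1, 172 for Mrgprb2 and 451 for Tph1. Hdc had 399.2 and 327.8 CPM in SSMs and 64.5 and 69.6 CPM in MSMs, a ratio of 5.43. Kit had 338.9 and 481.2 CPM in SSMs and was higher in MSMs, at 605.9 and 614.4 CPM. Kit and Hdc transcripts were thus present in MSM libraries in which the protease genes were near 0. In these bulk samples, fewer cells of a type and less RNA per cell cannot be told apart.

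Per kilobase of exon, the 4 leading proteases were at like levels in SSMs from ndLNs. The mean was 364.1 CPM per kb for Cma1, 351.2 for Tpsb2, 339.8 for Mcpt4 and 287.8 for Cpa3, and the ranges of their 2 libraries overlapped. Hdc (56.9 CPM per kb), Kit (46.0) and Tpsab1 (35.2) followed, and neighbours among these 3 also overlapped. Mrgprb1 was lower, at 12.9 CPM per kb, without overlap with Tpsab1. Mrgprb2 (5.94) and Tph1 (5.25) were lowest and overlapped each other. In SSMs from tdLNs the same 4 proteases led, at 68.2 CPM per kb for Mcpt4, 60.9 for Cma1, 55.5 for Tpsb2 and 49.2 for Cpa3. Hdc came close behind at 29.6 CPM per kb and overlapped with Cpa3. Kit (7.56), Tpsab1 (4.65), Tph1 (1.92), Mrgprb1 (1.21) and Mrgprb2 (0.791) followed, each overlapping with its neighbour but Kit, which did not overlap with Hdc. In MSMs the order was led by Kit, at 68.5 CPM per kb in ndLNs and 36.1 in tdLNs, followed by Hdc at 10.5 and 5.96.

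The next comparison asked whether the difference between subsets was also present in the 4 tdLN libraries. The genes were named for their difference in ndLNs, but with earlier results of these data known. The fit also shared its estimate of the spread with the ndLN libraries. The filters on counts were likewise taken over all 8 libraries, among them the SSM ndLN libraries in which most of the genes stood out. This test is therefore not fully independent of the choice. All tested genes, given beside the members, were not chosen in this way. Of the 10 genes, 6 were called higher in SSMs (Cpa3, Cma1, Mcpt4, Tpsb2, Tph1 and Hdc) and 1 was called lower (Kit), where 5.16% of all tested genes were called higher and 3.52% lower. A call was an adjusted p under 0.01 in edgeR's quasi-likelihood test and a mean normalized count over 100. The median log2 fold change of the 10 was 8.69, compared with 0.02 over all tested genes. The SSM and MSM libraries did not overlap for any of the 10, with 9 higher in SSMs and Kit lower. Of all tested genes, 29.5% had both SSM tdLN libraries above both MSM tdLN libraries and 27.1% had both below.

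Among the proteases in tdLNs, Cpa3 had 1610 and 4937 counts in SSMs and 3 and 15 in MSMs, a ratio of 370.5 (log2 fold change 8.42, adjusted p = 2.66e-04 in edgeR's test). Mcpt4, a chymase that splits matrix proteins and stays bound to heparin, had 1616 and 5012 counts against 5 and 3, a ratio of 807.2 (adjusted p = 1.75e-04). Cma1 had 1619 and 4211 counts against 13 and 16, a ratio of 199.1 (adjusted p = 7.50e-04). In all 3 genes the SSM library with fewer counts was still over 100 times the higher MSM library. Tpsb2 had 1713 and 6041 counts against 5 and 10, a ratio of 518.2 (adjusted p = 6.33e-04). Tpsab1 had 158 and 695 counts in SSMs but 1 and 0 in MSMs, a ratio of 803.5 with a 95% counting interval of 150.0 to 33140, and did not pass the threshold (adjusted p = 0.0196).

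Of the receptors and enzymes in tdLNs, Tph1 had 320 and 723 counts in SSMs and 0 in both MSM libraries, at least 171-fold higher (adjusted p = 0.00379). Mrgprb1 had 124 and 319 counts against 1 and 0, a ratio of 416.4 with a counting interval of 77.7 to 17230 (adjusted p = 0.0334). Mrgprb2 had 29 and 115 counts against 0 and 0, at least 23.7-fold higher (adjusted p = 0.102). The Mrgprb genes thus had 0 or 1 count in each MSM library, and neither was called in edgeR's test, while a DESeq2 Wald test gave adjusted p-values of 2.52e-05 and 3.41e-06. Hdc was 140.8 and 237.4 CPM in SSMs against 34.6 and 41.6 CPM in MSMs (log2 fold change 2.30, SE 0.24, adjusted p = 7.29e-04). Kit was the reverse, at 73.1 and 61.6 CPM in SSMs against 374.1 and 269.2 CPM in MSMs, which is 4.78 times as much in MSMs (log2 fold change -2.25, SE 0.23, adjusted p = 6.33e-04).

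These tdLN calls rested on both MSM libraries. With one of them left out, the lone MSM library being assumed to vary like the other groups, the 7 calls fell to 2 without MSM tdLN library 1 and to 1 without MSM tdLN library 2. No fold change turned direction in either case, and the other alternatives gave 5 to 9 calls.

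The few protease counts in MSM libraries did not follow the proportions seen in SSMs. In SSMs from ndLNs, Tpsb2 had 129 and 127 counts per 100 Cpa3 counts, and Cma1 90.0 and 92.5. In MSMs from ndLNs, Tpsb2 had 21 and 87 counts and Cma1 21 and 75 where Cpa3 had 1 and 4. In MSMs from tdLNs, Cma1 had 13 and 16 counts, Cpa3 3 and 15 and Tpsb2 5 and 10. These are small numbers, and the order of the genes differed between the MSM libraries.

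SSMs from tdLNs were then compared with SSMs from ndLNs. All 10 genes were lower in both tdLN libraries than in either ndLN library, a pattern that 26.3% of all tested genes showed. The median log2 fold change of the 10 was -2.69, compared with -0.04 over all tested genes. At the threshold used, 2 of the 10 were called lower, Cpa3 and Kit, where 1.05% of all tested genes were called lower and 1.99% higher. At an adjusted p under 0.05 and the same cut-off on mean count, 8 of the 10 passed, where 3.37% of all genes did. The 2 SSM ndLN libraries are among those on which the genes were chosen for being high, so this comparison is not independent of the choice.

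For the proteases, Cpa3 was 561.9 and 311.1 CPM in SSMs from ndLNs and 36.1 and 113.2 CPM in those from tdLNs, 5.85-fold higher in ndLNs (log2 fold change -2.69, SE 0.47, adjusted p = 0.00892 in edgeR's test). Tpsb2 was 723.4 and 396.4 CPM against 38.4 and 138.5 CPM (log2 fold change -2.88, SE 0.54, adjusted p = 0.0145). Cma1 was 505.9 and 287.7 CPM against 36.3 and 96.5 CPM (log2 fold change -2.69, SE 0.47, adjusted p = 0.0136). The libraries of a group differed by 1.76 to 3.61 times in these genes, ndLN library 1 and tdLN library 2 being the higher. Mcpt4 was 503.7 and 249.2 CPM against 36.2 and 114.9 CPM (log2 fold change -2.42, SE 0.48, adjusted p = 0.0119). Tpsab1 was 89.9 and 57.7 CPM against 3.54 and 15.9 CPM (log2 fold change -3.03, SE 0.58, adjusted p = 0.0247). Among the proteases, Cpa3 therefore passed the threshold of 0.01 and the other 4 missed it with estimates of similar size.

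Of the receptors, Mrgprb1 had the largest estimate of the 10, at 70.8 and 36.8 CPM in ndLNs against 2.78 and 7.31 CPM in tdLNs (log2 fold change -3.37, SE 0.53, adjusted p = 0.0169). Mrgprb2 was 14.7 and 10.0 CPM against 0.650 and 2.64 CPM (log2 fold change -2.91, SE 0.57, adjusted p = 0.0376). Kit was 338.9 and 481.2 CPM against 73.1 and 61.6 CPM (log2 fold change -2.61, SE 0.23, adjusted p = 0.00192), and its tdLN libraries lay close together. The amine enzymes had the smallest estimates. Tph1 was 32.8 and 32.1 CPM against 7.17 and 16.6 CPM (log2 fold change -1.52, SE 0.35, adjusted p = 0.0560), and Hdc 399.2 and 327.8 CPM against 140.8 and 237.4 CPM (log2 fold change -0.98, SE 0.23, adjusted p = 0.0390).

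The number called in SSMs moved with the settings while the direction did not. Both calls were lost without SSM tdLN library 1 (0 calls, Cpa3 adjusted p = 0.0665 and Kit 0.0390), 1 was made without SSM tdLN library 2 (Mcpt4) or without any single MSM library (Kit), and 4 were made without SSM ndLN library 2. A fit without the replicate block made 5 calls, and a DESeq2 Wald test 6.

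**Figure D2:**
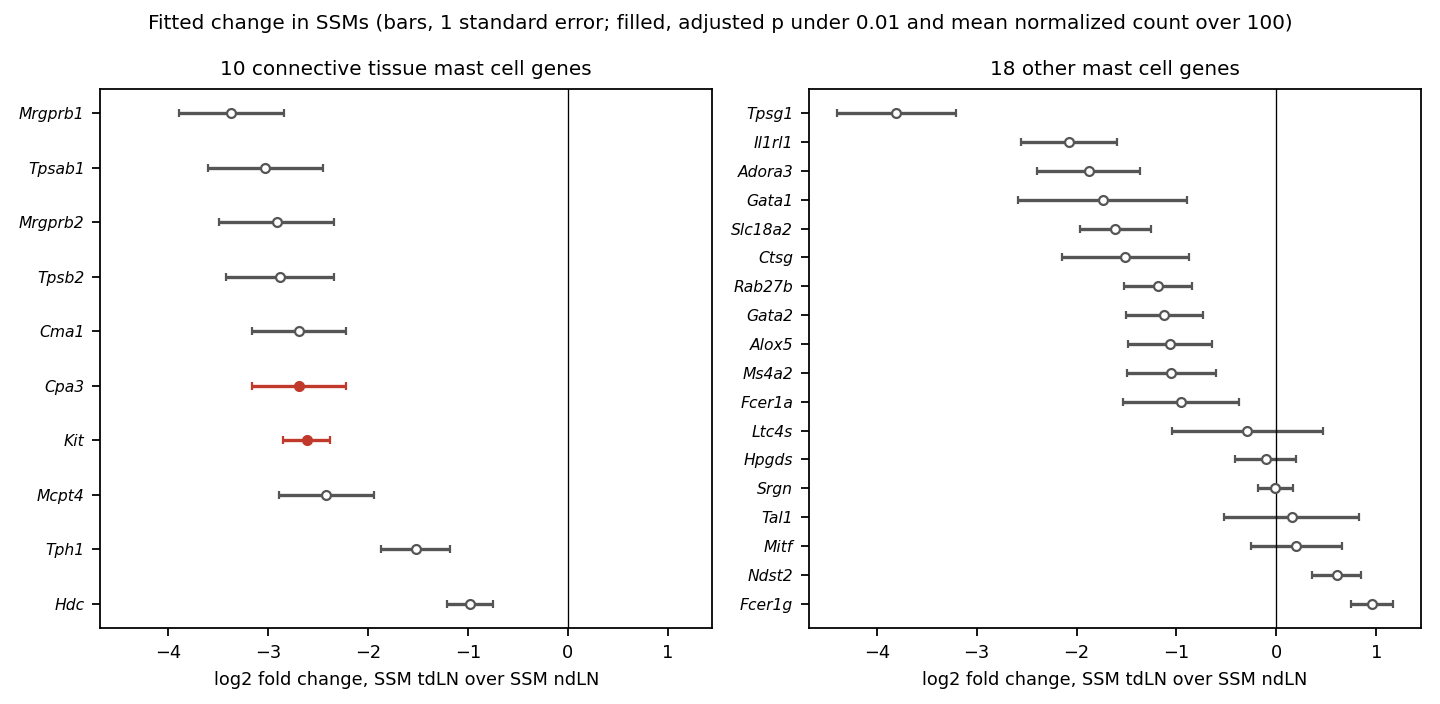
Fitted log2 fold change of SSMs from tdLNs over SSMs from ndLNs for the 10 connective tissue mast cell genes (left) and 18 other mast cell genes (right). Bars are 1 standard error and filled points passed the threshold. All 10 points on the left lie below 0, from -3.37 to -0.98, while on the right 14 of 18 do.

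In MSMs, where each protease had at most 87 counts in a library, Kit and Hdc were the members with enough counts to compare nodes closely. Kit was 605.9 and 614.4 CPM in ndLNs and 374.1 and 269.2 CPM in tdLNs (log2 fold change -0.93, SE 0.22, adjusted p = 0.165 in edgeR's test). Hdc was 64.5 and 69.6 CPM against 34.6 and 41.6 CPM (log2 fold change -0.82, SE 0.24, adjusted p = 0.246). Neither gene overlapped between nodes, as for 18.1% of all genes that were lower in both tdLN libraries, but 0 of the 10 genes were called, where 0.019% of all genes were called lower and 0.00474% higher. At an unadjusted p under 0.05 there were 2, Kit and Hdc, and a DESeq2 Wald test called 1, Kit (adjusted p = 0.00282). The difference between subsets in the change with the node was tested as an interaction. This contrast contains the difference in ndLNs for which the genes were chosen, so it is not independent of the choice. The interaction was -1.68 (SE 0.31, adjusted p = 0.0629) for Kit and -0.16 (SE 0.33, adjusted p = 0.974) for Hdc on the log2 scale. None of the 10 was called in edgeR (0, with 1 at an unadjusted p under 0.05, where 0.0332% of all genes were called higher and 0.00474% lower), and DESeq2 called 1, Kit (adjusted p = 4.01e-05). For Tph1 and Mrgprb2, with 0 counts in MSMs, and for Mrgprb1 and Tpsab1, with 1 and 3 counts over the MSM libraries, the interaction could not be estimated.

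The genes were next set against each other within each SSM library. Per 100 Cpa3 counts, Cma1 had 90.0 and 92.5 counts in ndLNs and 100.6 and 85.3 in tdLNs. Mcpt4 had 89.6 and 80.1 against 100.4 and 101.5, and Tpsb2 129 and 127 against 106 and 122. These ratios stayed within a narrow band although Cpa3 itself varied from 36.1 to 561.9 CPM. Tpsab1 had 16.0 and 18.5 counts per 100 Cpa3 counts in ndLNs and 9.81 and 14.1 in tdLNs, and Mrgprb1 12.6 and 11.8 against 7.70 and 6.46. Mrgprb2 had 2.61 and 3.22 against 1.80 and 2.33. For Tpsab1 and both Mrgprb genes the tdLN ratios were thus below the ndLN ratios in both libraries. Hdc had 71.0 and 105 counts per 100 Cpa3 counts in ndLNs and 390.2 and 209.8 in tdLNs, Tph1 5.83 and 10.3 against 19.9 and 14.6, and Kit 60.3 and 154.7 against 202.5 and 54.4. Hdc and Tph1 were thus higher relative to Cpa3 in both tdLN libraries, and Kit had no order by node. These ratios were not tested.

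Among 8 genes outside the 10, the ratio to Cpa3 was higher in both tdLN libraries for 5 (Fcer1a, Ms4a2, Gata2, Rab27b and Slc18a2), overlapped between nodes for Ctsg and Ddc, and was lower in both for Tpsg1. Fcer1a, the ligand-binding chain of the IgE receptor, had 5.86 and 4.78 counts per 100 Cpa3 counts in SSMs from ndLNs and 17.0 and 16.7 in those from tdLNs. Ms4a2, its beta chain, had 1.85 and 2.43 against 7.89 and 5.27, and Gata2 10.7 and 16.3 against 54.1 and 30.1. Tpsg1, a further tryptase gene, had 1.21 and 1.43 against 0.683 and 0.486.

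**Figure D3:**
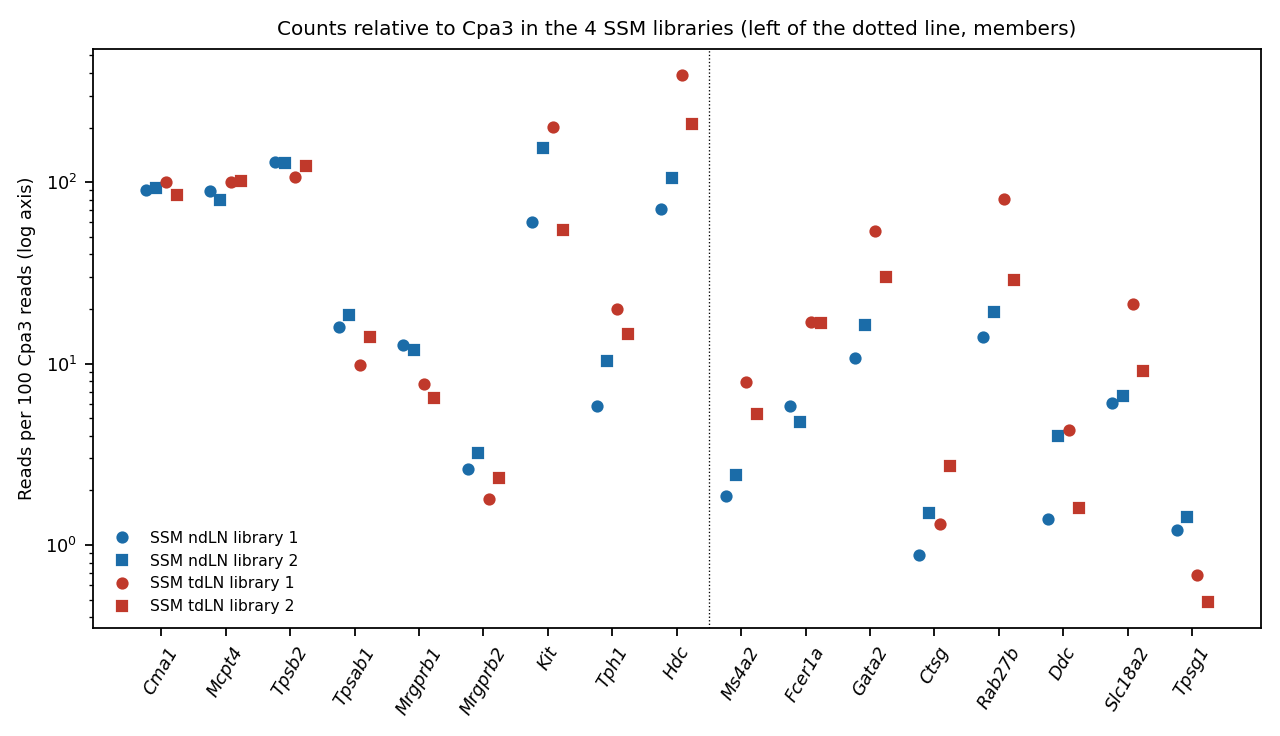
Counts of each gene per 100 Cpa3 counts (log axis) in the 4 SSM libraries, with members left of the dotted line and 8 other genes of mast cells and amine synthesis right of it. Blue points are ndLN and red points tdLN libraries, circles library 1 and squares library 2. Cma1, Mcpt4 and Tpsb2 lie between 80.1 and 129 in every library. Relative to Cpa3, Hdc, Fcer1a, Ms4a2 and Gata2 are higher and Mrgprb1 and Tpsg1 lower in both tdLN libraries.

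Of 18 further mast cell genes, 4 were called higher in SSMs than MSMs from tdLNs (Fcer1g, Rab27b, Alox5 and Gata2) and 0 lower in edgeR's test, where 5.16% of all tested genes were called higher and 3.52% lower. Their median log2 fold change was 3.79, compared with 0.02 over all tested genes. Gata2 was 19.5 and 34.0 CPM in SSMs from tdLNs against 0.0242 and 0 CPM in MSMs. Rab27b, which takes part in granule release, was 29.2 and 32.6 CPM against 0.218 and 2.03 CPM. Alox5, which begins leukotriene synthesis, was 9.60 and 24.6 CPM against 1.02 and 1.01 CPM. Fcer1a was 6.12 and 18.9 CPM in SSMs from tdLNs and Ms4a2 2.85 and 5.96 CPM, with 0 counts of either in MSMs from tdLNs, and neither passed the threshold (adjusted p = 0.0116 and 0.0172). Fcer1g, the gamma chain that macrophages also express, was 1508 and 1449 CPM in SSMs against 364.3 and 313.3 CPM in MSMs. The genes of this list that MSMs lacked and those that they shared were thus both present among the calls.

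Between nodes in SSMs, 14 of these 18 genes had lower estimates in tdLNs, with a median log2 fold change of -1.06, compared with -0.04 over all tested genes. In edgeR's test 0 were called, where 1.05% of all genes were called lower and 1.99% higher, and 9 had an unadjusted p under 0.05. Tpsg1, a tryptase gene whose product is anchored in the membrane, had 6.79 and 4.45 CPM in ndLNs against 0.247 and 0.550 CPM in tdLNs (log2 fold change -3.81, SE 0.60, adjusted p = 0.0183). Il1rl1, the receptor of IL-33, was 55.3 and 50.2 CPM against 8.05 and 17.8 CPM (adjusted p = 0.0381), and Slc18a2, which loads amines into vesicles, 34.1 and 20.5 CPM against 7.67 and 10.2 CPM (adjusted p = 0.0327). Fcer1g went the other way, at 984.0 and 566.9 CPM in ndLNs against 1508 and 1449 CPM in tdLNs (log2 fold change 0.96, SE 0.21, adjusted p = 0.0303). Srgn, the core protein that binds granule proteases and is used by most blood cells, was 1983 and 1483 CPM against 1664 and 1793 CPM, with groups that overlapped.

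Relatives of the 10 genes were followed in the same libraries, and some moved with the members and others did not. Mrgprb3, Mrgprb4, Mrgprb5, Mrgprb8 and Mrgprb13 had 0 counts in all 8 libraries, so Mrgprb1 and Mrgprb2 were the detected genes of that family. Mcpt1, a mucosal mast cell chymase, had 0 counts in SSMs from ndLNs and 17.3 and 31.2 CPM in those from tdLNs and was called higher there (adjusted p = 0.00411 in edgeR's test). Mcpt2, the other mucosal chymase, was 12.4 and 2.37 CPM in ndLNs and 5.38 and 23.8 CPM in tdLNs, with groups that overlapped. Mcpt8, a basophil protease from the same locus as Cma1 and Mcpt4, was 1.60 and 3.92 CPM in ndLNs and 20.5 and 23.8 CPM in tdLNs (log2 fold change 3.06, SE 0.38, adjusted p = 0.00469). Of the 6 further chymase locus genes, 5 could be tested, and 2 of them, Mcpt1 and Mcpt8, were called higher in tdLNs and 0 lower, where 1.99% and 1.05% of all genes were. Cma2, a chymase gene that shares sequence with Mcpt4, had 43 and 21 counts in SSMs from ndLNs, 2 and 1 in those from tdLNs and 0 in MSMs (adjusted p = 0.110 between nodes). Gzmb, the granzyme B gene of cytotoxic cells, was 826.3 and 772.2 CPM in ndLNs and 511.7 and 757.7 CPM in tdLNs (log2 fold change -0.40, SE 0.26, adjusted p = 0.410). The locus thus held genes with higher and genes with lower values in tdLNs. Ddc, which completes serotonin synthesis after Tph1, was 7.80 and 12.3 CPM in SSMs from ndLNs and 1.55 and 1.81 CPM in those from tdLNs (log2 fold change -2.57, SE 0.41, adjusted p = 0.00866), with a mean count under the cut-off for a call, and had at most 0.352 CPM in MSMs.

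Markers of other cell types also differed between the groups. The 8 genes other than Kit and Hdc summed to 2503 and 1381 CPM in SSMs from ndLNs, 161 and 505.5 CPM in SSMs from tdLNs and between 0.679 and 3.90 CPM in MSMs. In SSMs, 7 of 9 macrophage markers were called higher in tdLNs, where 1.99% of all tested genes were called higher and 1.05% lower, their sum being 9157 and 5948 CPM in ndLNs and 22960 and 15760 CPM in tdLNs. The 6 T cell markers summed to 1880 and 2104 CPM in SSMs from ndLNs and 805.3 and 905.6 CPM in those from tdLNs. The T cell sum was thus also lower in tdLNs, with 1 of 6 genes called lower, and the macrophage sum higher. The 4 NK cell markers summed to 1590 and 1184 CPM in ndLNs and 946.7 and 1421 CPM in tdLNs, with groups that overlapped, and the 5 neutrophil markers to 7.39 and 87.9 CPM against 213.9 and 96.2 CPM. In both of these lists 0 genes were called in edgeR's test, with 1 of 4 and 3 of 5 at an unadjusted p under 0.05. The 5 markers of group 2 innate lymphoid cells summed to 861 and 1105 CPM against 309 and 350.5 CPM, with 2 of 5 called lower. The 4 basophil markers summed to 42.1 and 19.9 CPM against 58.9 and 71.0 CPM, and the 4 eosinophil markers to 63.6 and 49.4 CPM against 11.9 and 98.0 CPM. Of the basophil genes 1 was called higher in tdLNs, with 3 higher and 1 lower estimates. Of the eosinophil genes 0 were called, with 2 higher and 2 lower estimates. Genes high in a single SSM tdLN library carried part of these sums, with Prss34 at 30.3 and 0.0229 CPM, Il4 at 7.20 and 42.5 CPM and Prg2 at 0.583 and 53.9 CPM. In MSMs, the T cell sum was 86.1 to 255.8 CPM, that of the innate lymphoid cells 30.6 to 62.3 CPM, that of NK cells 8.85 to 39.2 CPM and that of basophils 0.418 to 1.63 CPM, while the 5 dendritic cell markers were higher, at 2028 to 2422 CPM against 226.5 to 294 CPM in SSMs. The part of these cell types in the levels of the mast cell genes was not tested.

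**Figure D4:**
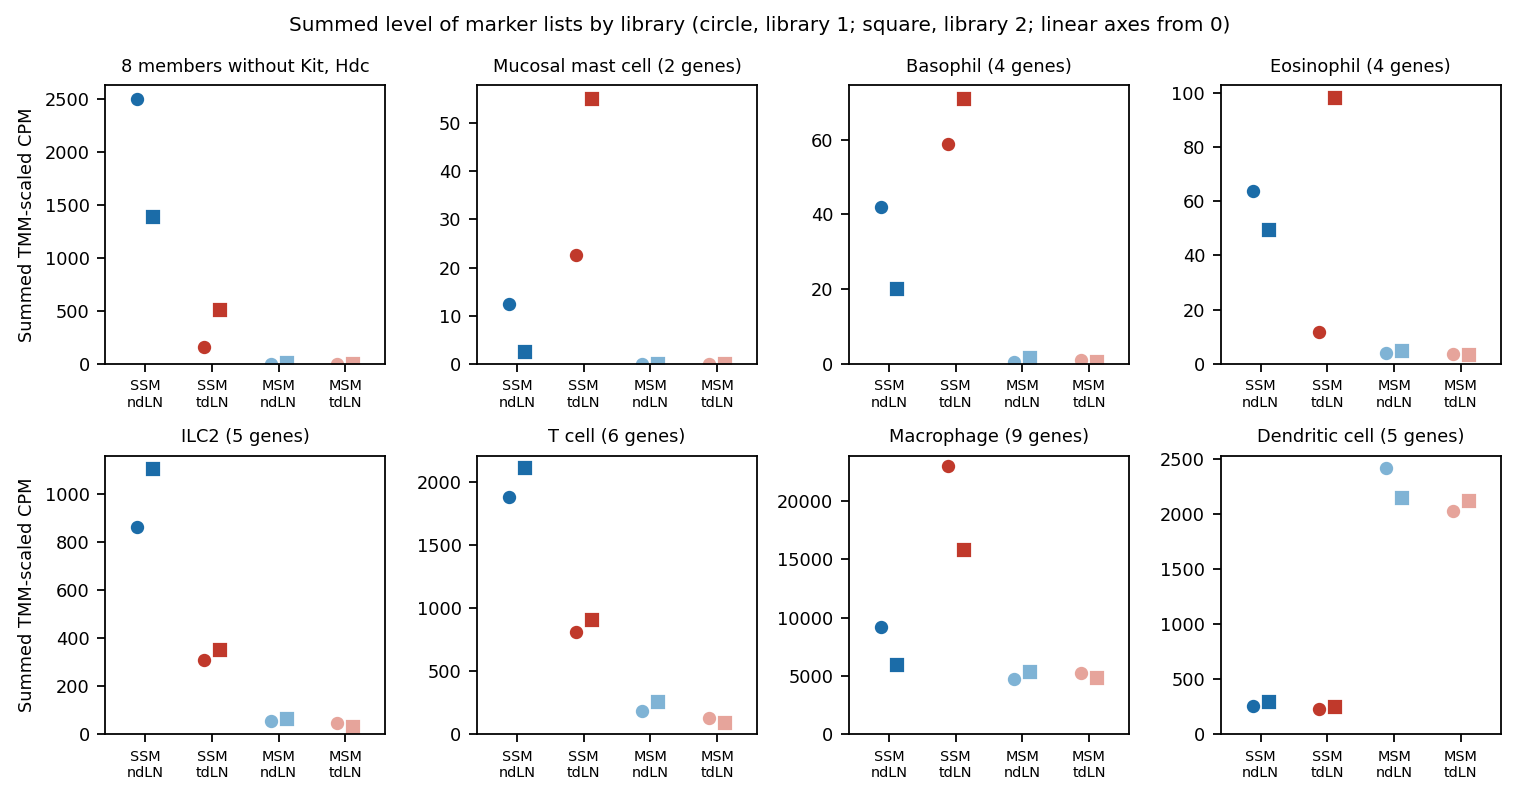
Summed TMM-scaled CPM (linear axes from 0) of the 8 mast cell genes without Kit and Hdc and of marker lists of other cell types, in each library. Circles are library 1 and squares library 2 of each group. The sum of the 8 genes and the innate lymphoid and T cell sums are lower in SSMs from tdLNs, and the macrophage sum is higher. The mucosal mast cell sum is also higher, at 22.7 and 55.1 CPM in SSMs from tdLNs against 12.4 and 2.37 CPM in those from ndLNs. In MSMs the sum of the 8 genes is at most 3.90 CPM.

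Finally, the genes whose levels over the 8 libraries were most like the mean of the 10 (on log2(CPM + 1)) were listed among 9979 genes of sufficient count. They were Clcf1 (Pearson r = 0.994), Ppp3cc (0.993), Ccl1 (0.993), Zbtb25 (0.993) and Ccr6 (0.992). The libraries fall into separate SSM and MSM sets, so these values describe a shared order of groups and no p is given. Ccl1, a chemokine, was 31.1 and 20.1 CPM in SSMs from ndLNs, 5.78 and 8.53 CPM in SSMs from tdLNs and at most 0.145 CPM in MSMs. None of these 5 genes is on the mast cell lists.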

How the data were processed

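RNA sequencing was measured in 16 samples, which are 8 libraries each run on lanes 3 and 4. Libraries were prepared by the authors using SMART-Seq v4, and per the submitters' processing notes bcl2fastq 2.20.0.422, Trimmomatic 0.36 and STAR 2.5.3a were used on the mm10 genome. The authors deposited raw counts per gene, unnormalized. The strand setting of the counting is not given in the sources used here. All columns were mapped to a sample.

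Lanes of 1 library agreed within sampling noise (chi-square per degree of freedom 0.955 to 1.02, against 29.3 to 53.1 between libraries of a group) and were summed, so n = 2 per group. P-values measure the spread between libraries of a group that remains after pool number is fitted, estimated over all 8 libraries. Genes with at least 10 counts in total and detection in at least 2 columns were kept. Counts were scaled by TMM (factors 0.902 to 1.15) and fitted in edgeR 4.0.16 with group and pool over all libraries, with quasi-likelihood tests and Benjamini-Hochberg adjustment. SE is the log2 fold change divided by the square root of F. Normalized counts are on the scale of 1 lane. The test was also run on simulated counts in which well-counted genes were changed between the SSM groups. That setting held no gene nearly absent from one group alone, so it does not bear on such contrasts. Counting intervals are exact (95%), and bounds against 0 use a floor of 3 counts per library, covering counting error only.

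Symbols, exons and coding sequences came from GENCODE M21, which matched 55240 of 55423 rows, and promoters from RefSeq. Alternatives were no replicate block, DESeq2 1.42.0, its size factors, other filters and cut-offs, single lanes, only the groups compared, a legacy fit and each library left out. All 10 genes are named; other lists are described by counts and by their first 2 genes, any of the 18 mast cell genes, and the 5 most similar genes. Mrgprb5, Mrgprb8, Mrgprb13, Cma2, Gzmb, Ddc and the ratios to Cpa3 of other genes were picked with values in view. The genes and lists were chosen with earlier results of these data known. Columns of the same pool number did not deviate together in every pair of groups (correlations from -0.15 to 0.165).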

Additional observations from a re-analysis of the deposited data

How the results depend on the processing

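With 2 libraries per group, the number of genes past the threshold was less stable than their direction. Single genes were judged by direction and an adjusted p under 0.01 alone, without the cut-off on mean count. Of 406 recomputed fold changes, 336 kept direction and side of that p, 41 passed it newly, 27 no longer passed, and 2 turned sign. Both that turned were the interaction of Hdc, whose log2 value was 0.18 without SSM tdLN library 1. With a library left out it ranged from -0.55 to 0.19, the highest being without SSM ndLN library 1. In SSMs, the 2 genes lower in tdLNs became 8 at an adjusted p under 0.05, 5 without the replicate block, 6 with DESeq2, 1 without a filter on low counts, 5 with filterByExpr, 6 on lane 3 alone, 7 on lane 4 alone, 1 in the legacy fit and 0 with only SSM libraries in the fit, and ranged from 0 to 4 with a library left out. In SSMs against MSMs from tdLNs, the 7 calls ranged from 1 to 9 with a library left out. DESeq2 called 1 gene in MSMs between nodes and 1 in the interaction, where edgeR called 0. The pool numbers did not clearly pair the libraries, and without the block the count stayed at 7 for SSMs against MSMs from tdLNs and at 0 for the MSM and interaction contrasts. On raw library totals, the summed level of the 10 genes was 606.1 and 664.0 CPM in the MSM libraries from ndLNs, in place of 671.7 and 687.9 CPM. Why these counts moved was not tested. Folds of genes with 0 counts in MSMs are lower bounds at this depth.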
